A study of Mus musculus with 9 samples.

Results

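Among the long non-coding RNAs of the mouse genome, 8 with known roles in imprinting or in the nucleus were followed through hair cells (HCs) with 0, 1 or 2 mutant copies of Mir96. They are Meg3, Rian, Mirg, H19 and Kcnq1ot1, which are made from 1 parental chromosome, and Malat1, Neat1 and Miat, which stay in the nucleus. They were chosen by gene name from the 43808 genes of the count tables, with earlier results of these data known. Enough reads to be tested between genotypes were found for 6 of the 8. In genotype means, Miat took more reads than any other long non-coding RNA in every genotype. In the homozygous mouse numbered 46, however, Malat1 had 26325 reads against 21541 for Miat. The level of Miat in homozygous mutants lay below that of every wild-type library. No member was called by edgeR, the main test, in any comparison. The paper, which used DESeq2, lists Miat among the genes lower in homozygous mutants.

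The cells were sorted from the inner ears of mice at postnatal day 1 (P1), from the cochleae and the vestibular organs together, so a level is an average over both. All mice carried Atoh1/nGFP, a reporter in which Atoh1 sequences drive a nuclear green fluorescent protein in HCs, and cells positive for it and for CD326, an epithelial surface protein, were collected. The genotypes were wild-type, heterozygous and homozygous for Dmdo, a point mutation of Mir96 bred from C3HeB/FeJ mice into a cross with C57BL6 reporter mice. Each of the 9 libraries came from 1 mouse, 3 per genotype, and is named here by genotype and mouse number. In bulk samples such as these, fewer cells of a type and less RNA per cell cannot be told apart.

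A microRNA pairs with target RNAs mainly through its seed, bases 2 to 8 counted from the 5′ end, and miR-96 is a microRNA of sensory cells. Imprinted long non-coding RNAs are transcribed from the maternal or the paternal chromosome alone and lie in clusters whose neighbouring genes are also imprinted. Malat1 is found in nuclear speckles, where splicing factors gather, Neat1 is the scaffold of paraspeckles, and Miat forms nuclear foci of its own in neurons and binds splicing factors.

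The Dmdo allele changes 1 base of the seed, A7U. Both forms of the microRNA are shown because the mutation differs between the genotypes compared, with the seed in capitals. The first sequence is from RefSeq (GRCm38.p6, minus strand, chr6:30169506-30169528), and the second carries the substitution.
miR-96-5p: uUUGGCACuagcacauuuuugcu
miR-96-5p Dmdo: uUUGGCUCuagcacauuuuugcu
A perfect match to bases 2 to 8 reads GTGCCAA for the wild-type form and GAGCCAA for the Dmdo form. These 7-base matches were counted on the sense strand of the exons of GENCODE vM21. The exons of the 8 members, 176 kb in all, held 10 matches to the wild-type seed, or 0.0567 per kb, beside 0.0680 per kb over the exons of the 15184 genes tested. They held 12 matches to the Dmdo seed, or 0.0681 per kb beside 0.0817 per kb. The sites of Miat, Neat1, H19 and Malat1 are shown, since these 4 had the highest levels per kb of exon, with the match in capitals and 10 bases on each side.
Miat, miR-96 seed, chr5:112229240-112229246: gctcgtgatgGTGCCAAggagtgcagg
Miat, Dmdo seed, chr5:112221085-112221091: aatggctcctGAGCCAAggcagggctt
Miat, Dmdo seed, chr5:112229108-112229114: ccggccctgaGAGCCAAgcacggatac
Neat1, Dmdo seed, chr19:5831999-5832005: tagtaggacaGAGCCAAggcttcttca
Neat1, Dmdo seed, chr19:5833633-5833639: ttgaacccaaGAGCCAAgtgtggtggt
Neat1, Dmdo seed, chr19:5841762-5841768: tccattgtagGAGCCAAcctgccctga
H19, Dmdo seed, chr7:142575980-142575986: catcatcctgGAGCCAAgcctctaccc
Malat1, miR-96 seed, chr19:5796373-5796379: ggtaaccatgGTGCCAAggtcctgtgg
Malat1, miR-96 seed, chr19:5798918-5798924: gcggtgcagtGTGCCAAtgtttcgttt
All of these sites lie on the minus strand of GRCm38 in exons of the named RNA. None of them is followed by an A, the base that lengthens a 7-base match to an 8-base one. Neat1 and H19 held no match to the wild-type seed, and Malat1 and Mirg held none to the Dmdo seed. A match is a description of sequence and says nothing about binding.

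Levels are given as CPM, the reads of a gene per 1000000 reads counted in its library, and, where RNAs are compared with each other, as CPM per kb of exon. Library totals ran from 18175317 reads in homozygous 46 to 34873964 in heterozygous 51. Wild-type 59 and homozygous 46 had the smallest totals. Wild-type 59 also had the fewest genes with a read, 15124 against 15856 to 16569 in the others, and homozygous 46 had the most RNA of mesenchyme markers. The 8 members together took 13.7% to 36.3% of the reads of all genes annotated as long non-coding, and these genes took 0.995% to 1.56% of all reads.

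In CPM per kb averaged over the 9 libraries, the order was Miat at 220, Malat1 at 124, H19 at 37.4, Neat1 at 1.10, Kcnq1ot1 at 0.396, Mirg at 0.109, Meg3 at 0.0503 and Rian at 0. Malat1 was above H19, and H19 above Neat1, in 9 of 9 libraries (exact paired permutation test over libraries, two-sided, adjusted p = 0.0137 for each over 7 neighbouring pairs). Neat1 was above Kcnq1ot1 in 7 of 9 libraries (exact permutation test, adjusted p = 0.0365). That order rests on the exon lengths used, 20771 and 93092 bases, since in mean CPM Neat1 was at 22.8 and Kcnq1ot1 at 36.9. Miat was above Malat1 in 6 of 9 libraries, and this pair was not separated (exact permutation test, adjusted p = 0.118). Kcnq1ot1 and Mirg were not separated either (adjusted p = 0.0602 in the same exact test). Mirg and Meg3 were not separated (exact permutation test, adjusted p = 0.594), and the order of Meg3 and Rian is not read, since Rian was listed at 0.

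**Figure D1:**
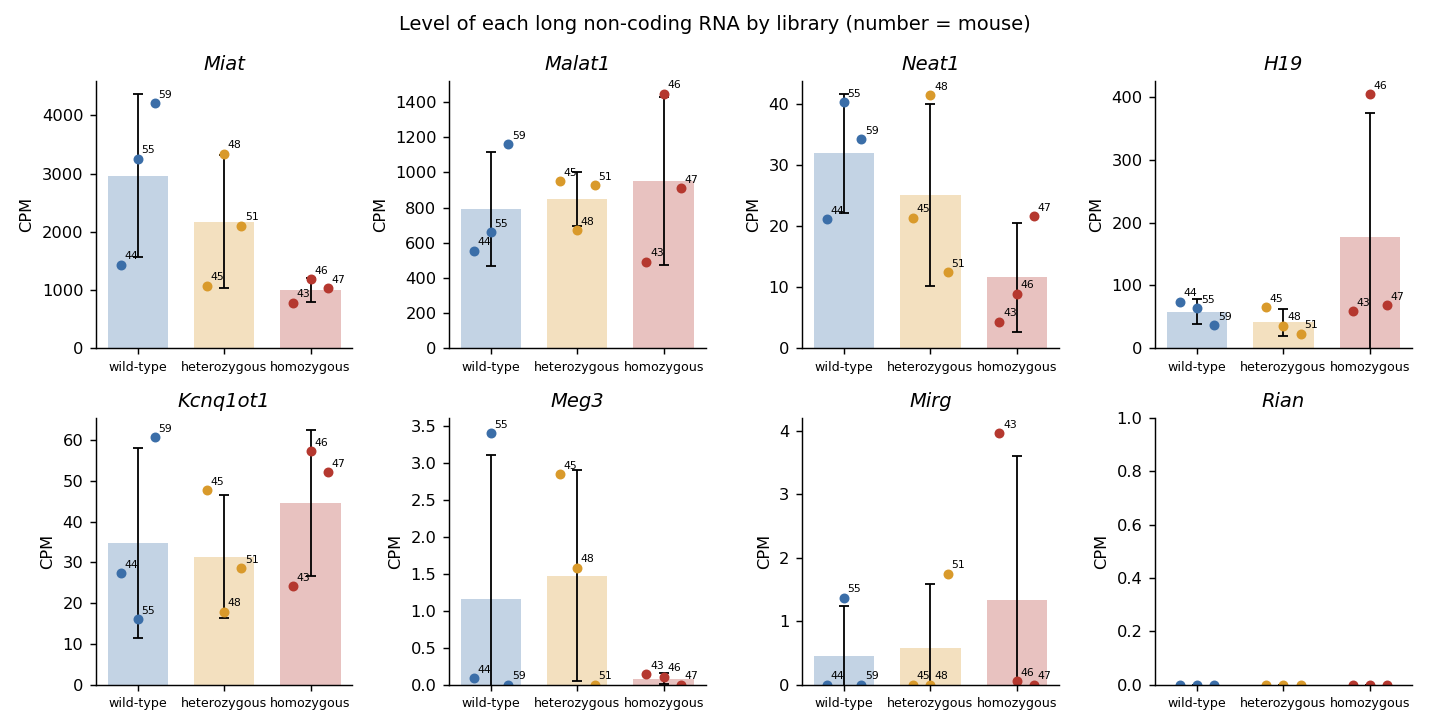
Level of each of the 8 long non-coding RNAs in CPM (y axis, a scale of its own in each panel) by genotype (x axis). Points are libraries with their mouse number, bars are means of 3 libraries and error bars are SDs, cut at 0. The 3 homozygous libraries of Miat lie between 781 and 1185 CPM, below the lowest wild-type library at 1437 CPM, and H19 is high in homozygous 46 at 404 CPM.

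Miat (ENSMUSG00000097767, minus strand, chr5:112213228-112229395, 6 exon blocks) is a spliced nuclear RNA of neurons and retina. In CPM per kb of exon it ranked 2 among long non-coding genes in wild-type and heterozygous HCs and 6 in homozygous HCs. Among all genes its rank on that scale was 116, 177 and 526. Its CPM was 1437, 3255 and 4204 in wild-type 44, 55 and 59. In heterozygous 45, 48 and 51 it was 1069, 3345 and 2103 CPM. In homozygous 43, 46 and 47 it was 781, 1185 and 1025 CPM. The 3 homozygous libraries were close together and all lay below the wild-type ones, whereas the heterozygous libraries spanned the range of both. All homozygous libraries lay below all wild-type libraries for 7.72% of the genes tested.

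The mean level of Miat in wild-type HCs was 2965 ± 1406 CPM (SD, n = 3), against 2172 ± 1139 CPM (SD, n = 3) for heterozygotes and 997 ± 204 CPM (SD, n = 3) for homozygotes. The homozygous mean was 0.336 of the wild-type mean. The log2 fold change was -1.66 (SE 0.42, 95% interval -2.56 to -0.77), and with adjusted p = 0.106 in edgeR's quasi-likelihood test it just missed the threshold of 10%. Between homozygous and heterozygous HCs it was -1.12 (edgeR adjusted p = 0.698), and between heterozygous and wild-type HCs -0.54 (95% interval -1.42 to 0.34, adjusted p = 1). Per Dmdo allele the log2 level changed by -0.83 (SE 0.22), with adjusted p = 0.102 in edgeR, again short of the threshold.

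Whether Miat was called from homozygous against wild-type HCs depended on how the data were fitted. DESeq2 called it lower (adjusted p = 0.0494), as did edgeR on these genotypes alone (adjusted p = 0.0410) and edgeR with no filter on low counts (adjusted p = 5.5e-06). The paper's own DESeq2 test, at the same thresholds, also places Miat among the genes lower in homozygous HCs. Leaving out wild-type 44, the wild-type library with the least Miat, also gave a call (edgeR adjusted p = 0.0159), as did leaving out heterozygous 45 (0.0412) or heterozygous 48 (0.0668). limma-voom with quality weights did not call it (adjusted p = 0.299). The log2 fold change was negative in all 20 alternatives, from -1.99 to -0.59, with adjusted p-values from 5.5e-06 to 0.621.

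**Figure D2:**
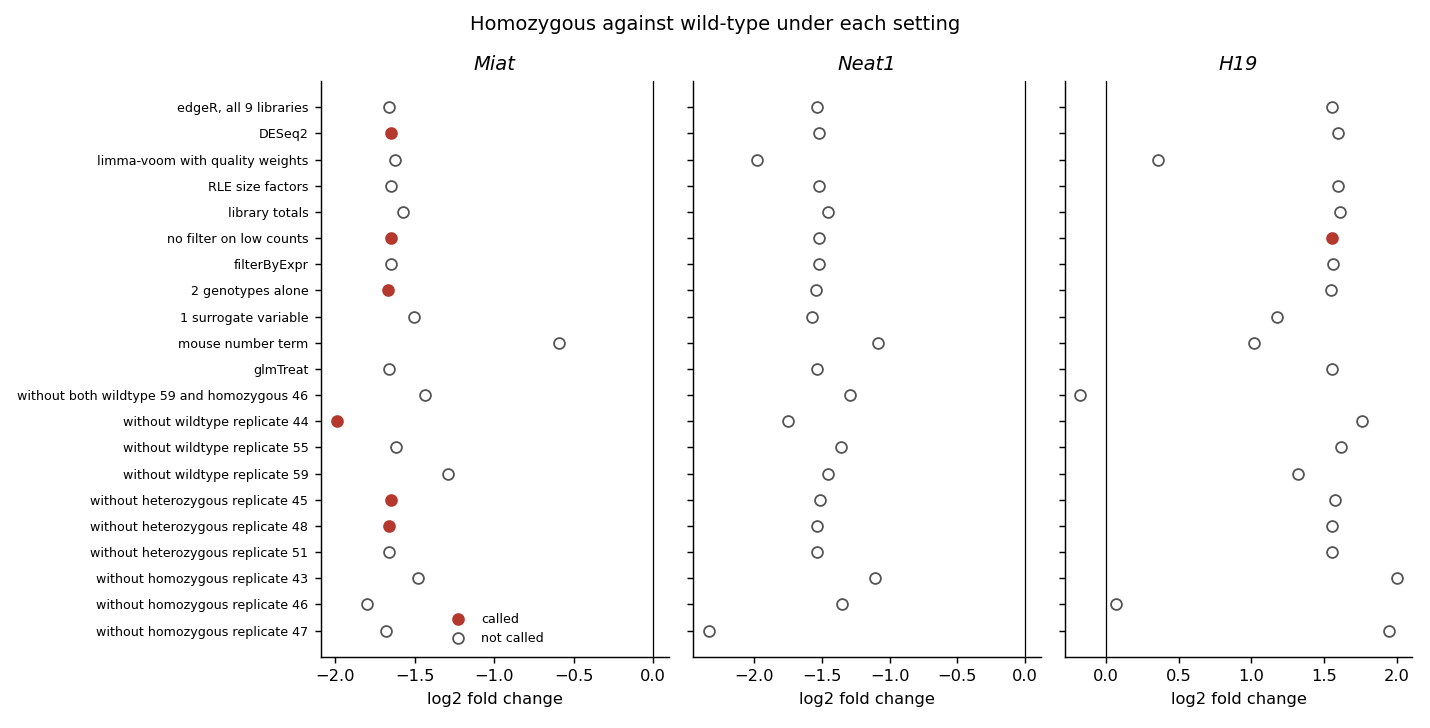
Log2 fold change of Miat, Neat1 and H19 from wild-type to homozygous HCs (x axis) in the edgeR test on all 9 libraries and in 20 alternatives (y axis). Filled points are calls (false discovery rate under 10%, fold above 1.5). Miat stays below 0 throughout and is called in 6 of the alternatives, and H19 is close to 0 without homozygous 46, at 0.07.

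The smallest log2 fold change of Miat, -0.59 (edgeR adjusted p = 0.621), came with a term for the mouse number. Here and below, this term marked mice numbered 47 or lower against 48 or higher, and not the number itself. With that term the change between homozygous and heterozygous HCs was -0.055 (edgeR adjusted p = 1), against -1.12 without it, and that per Dmdo allele was -0.33 (0.391). Without heterozygous 48 the former was -0.65 (edgeR adjusted p = 1). Mice numbered 47 or lower included all 3 homozygous mutants, 1 wild-type and 1 heterozygous mouse. Miat was at 781 to 1437 CPM in these 5 libraries and at 2103 to 4204 CPM in the 4 with higher numbers, without overlap. That order was seen in this direction in 3.55% of the genes tested. The split at 47 was chosen with earlier results of these data known, so this share is a description. Among the lower numbers, wild-type 44 (1437 CPM) was above the homozygous libraries (781 to 1185 CPM) and heterozygous 45 (1069 CPM) was among them. No homozygous mutant had a higher number, so no comparison with homozygous HCs can be made there. The labels do not say what the numbers stand for, and genotype and mouse number are largely joined in these samples.

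**Figure D3:**
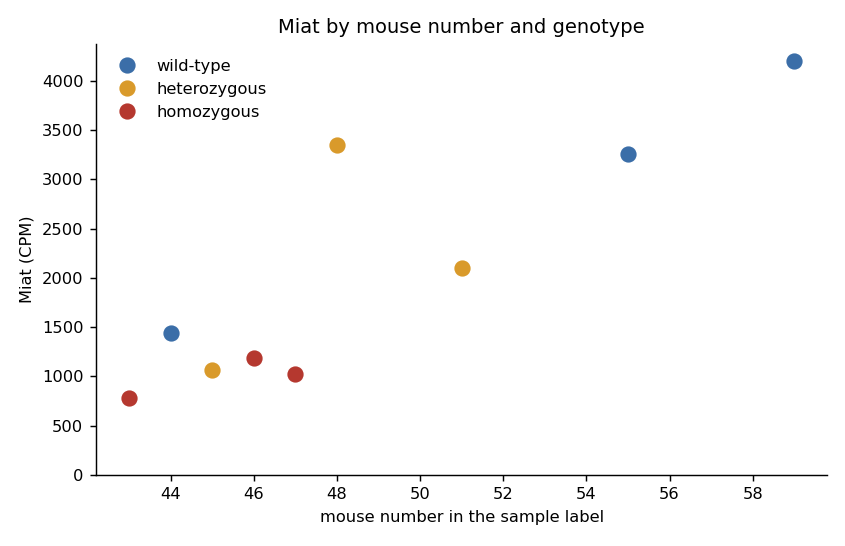
Miat in CPM (y axis) against the mouse number of the sample label (x axis), with 1 point per library coloured by genotype. The 5 mice numbered up to 47 lie at 781 to 1437 CPM and the 4 numbered from 48 on at 2103 to 4204 CPM.

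Further measures also differed between the genotypes. In all 3 homozygous libraries the Y-linked Ddx3y had more reads than Xist, the RNA of the inactive X chromosome, and Xist was the higher in wild-type 44 and 59 and in heterozygous 48. Among the 6 libraries in which Ddx3y was higher, Miat was at 3255 CPM in wild-type 55, at 1069 and 2103 CPM in heterozygous 45 and 51, and at 781 to 1185 CPM in homozygous HCs. The summed level of 13 HC markers in wild-type HCs was 14596 ± 2620 CPM (SD, n = 3), that of heterozygotes 13618 ± 1754 CPM (SD, n = 3) and that of homozygotes 10517 ± 1144 CPM (SD, n = 3). None of these markers was at 0 in all libraries. Otof, a calcium sensor of synaptic release, made up most of that difference, at 4983 ± 1808 CPM in wild-type and 2522 ± 645 CPM in homozygous HCs (SD, n = 3 each). The mean was lower in homozygous HCs for 10 of the 13 and higher for 3, Pou4f3 and Lhx3, transcription factors of HCs, and Pvalb, which buffers calcium. Means of Atoh1 (204 and 201 CPM, wild-type first), Myo6 (2040 and 2036 CPM) and Lhx3 (522 and 527 CPM) differed by less than their SDs. In edgeR the log2 fold change was below 0 for 11 of the 13 and above 0 for 2. Pou4f3 was at 1107 ± 49.5 and 1199 ± 131 CPM and Pvalb at 293 ± 156 and 668 ± 254 CPM (SD, n = 3 each, wild-type first). In genotype means, the summed level of 13 mRNAs of the mitochondrial genome ran in the other direction from Miat. It was 7734 ± 3267 CPM for wild-type, 11117 ± 4028 CPM for heterozygotes and 14124 ± 1176 CPM for homozygotes (SD, n = 3 each). By library it was 5615, 6091 and 11496 CPM in wild-type 44, 55 and 59, where it rose with Miat. In heterozygous 45, 48 and 51 it was 15626, 7876 and 9850 CPM, where it fell as Miat rose. In homozygous 43, 46 and 47 it was 14356, 15167 and 12849 CPM, in no order with Miat. The part of these measures in the result was not tested. Gm26953, a gene read from the opposite strand, covers 24.3% of the exon length of Miat and had 1 to 246 reads per library, against 21541 to 111757 for Miat.

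Set against the other abundant nuclear RNA, the level of Miat per kb was 1.94, 3.71 and 2.72 times that of Malat1 in wild-type 44, 55 and 59. The ratio was 0.846, 3.75 and 1.70 in heterozygous 45, 48 and 51, and 1.19, 0.615 and 0.845 in homozygous 43, 46 and 47. This ratio does not depend on library size, but it uses the same Miat reads as above and is not a separate measure of Miat. The homozygous libraries were all below the wild-type ones (exact permutation test, two-sided, p = 0.1, the smallest that 3 against 3 allows). In CPM, 7.72% of the genes tested had that order. Of the reads of all long non-coding genes, Miat made up 22.9% ± 8.99 (SD, n = 3) for wild-type, 19.2% ± 8.34 (SD, n = 3) for heterozygotes and 9.20% ± 1.18 (SD, n = 3) for homozygotes.

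Malat1 (ENSMUSG00000092341, minus strand, chr19:5795690-5802672, 1 exon block) is an abundant RNA of nuclear speckles. Its CPM was 556, 659 and 1162 in wild-type 44, 55 and 59, and 949, 670 and 928 in heterozygous 45, 48 and 51. In homozygous 43, 46 and 47 it was 493, 1448 and 911 CPM. The genotypes overlapped, and homozygous libraries held both the lowest and the highest value. The log2 fold change from wild-type to homozygous HCs was 0.18 (SE 0.35, 95% interval -0.57 to 0.92, edgeR adjusted p = 0.895), and a rise of 1.5-fold lies within that interval. Its sign turned in 3 of 20 alternatives.

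Neat1 (ENSMUSG00000092274, minus strand, chr19:5824708-5845478) lies 22.0 kb from Malat1 and is the RNA around which paraspeckles assemble. Its CPM was 21.1, 40.3 and 34.2 in wild-type 44, 55 and 59. It was 21.3, 41.4 and 12.4 CPM in heterozygous 45, 48 and 51, and 4.35, 8.91 and 21.6 CPM in homozygous 43, 46 and 47. Homozygous 43 and 46 had the lowest values of the 9 libraries, but homozygous 47 was at the level of wild-type 44. The log2 fold change from wild-type to homozygous HCs was -1.54 (SE 0.69, 95% interval -2.98 to -0.10), and it was not called (edgeR adjusted p = 0.346). It was negative in all 20 alternatives, from -2.34 to -1.08, and called in none of them. Its mean in wild-type HCs was 31.9 ± 9.77 CPM (SD, n = 3), against 25.1 ± 14.8 CPM (SD, n = 3) for heterozygotes and 11.6 ± 8.92 CPM (SD, n = 3) for homozygotes.

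H19 (ENSMUSG00000000031, minus strand, chr7:142575529-142578143) is a maternally expressed RNA abundant in embryonic mesoderm, and it shares its imprinting control with Igf2, a paternally expressed growth factor gene 72.6 kb away. Its CPM was 74.1, 63.8 and 36.1 in wild-type 44, 55 and 59. It was 64.8, 35.8 and 23.1 CPM in heterozygous 45, 48 and 51, and 58.6, 404 and 67.9 CPM in homozygous 43, 46 and 47. Homozygous 46 stood alone, and the other 8 libraries overlapped between 23.1 and 74.1 CPM. The log2 fold change from wild-type to homozygous HCs was 1.55 (SE 0.66, edgeR adjusted p = 0.337). Without homozygous 46 it was 0.07 (edgeR adjusted p = 0.984), and without both homozygous 46 and wild-type 59 it was -0.18. Between homozygous and heterozygous HCs it was 2.13 (SE 0.67, edgeR adjusted p = 0.698), and 0.63 without homozygous 46 (0.997). With no filter on low counts edgeR called it higher in homozygous than in wild-type HCs (adjusted p = 0.0018) and than in heterozygous HCs (7.7e-06). DESeq2 gave it no adjusted p.

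Mesenchyme markers were also highest in homozygous 46. The summed level of 10 such markers, collagens and matrix proteins among them, was 914 CPM in homozygous 46 and 131 to 263 CPM in the other 8 libraries. Among those 8, wild-type 44 had the most H19, 74.1 CPM, but the smallest sum, 131 CPM. Heterozygous 51 had the least H19, 23.1 CPM, with a sum of 134 CPM. Schwann cell and endothelial markers also summed highest in homozygous 46, at 268 and 10.1 CPM. All 10 had over 10 reads in homozygous 46 against 5 to 8 of them elsewhere. Col3a1, a fibrillar collagen, was at 216 CPM in homozygous 46 and at 3.41 to 51.7 CPM elsewhere, and Col1a1 was at 8.69 CPM there and at 0.407 to 18.0 CPM elsewhere. Igf2 was at 137 CPM in homozygous 46 and at 11.8 to 56.0 CPM in the others. Red blood cell markers, 5 in all, were at 0 in every library. The sort kept GFP-positive cells that also carried CD326, an epithelial protein, and mesenchyme markers summed to at least 131 CPM in every library. The part of mesenchyme in the H19 level of homozygous 46 was not tested.

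**Figure D4:**
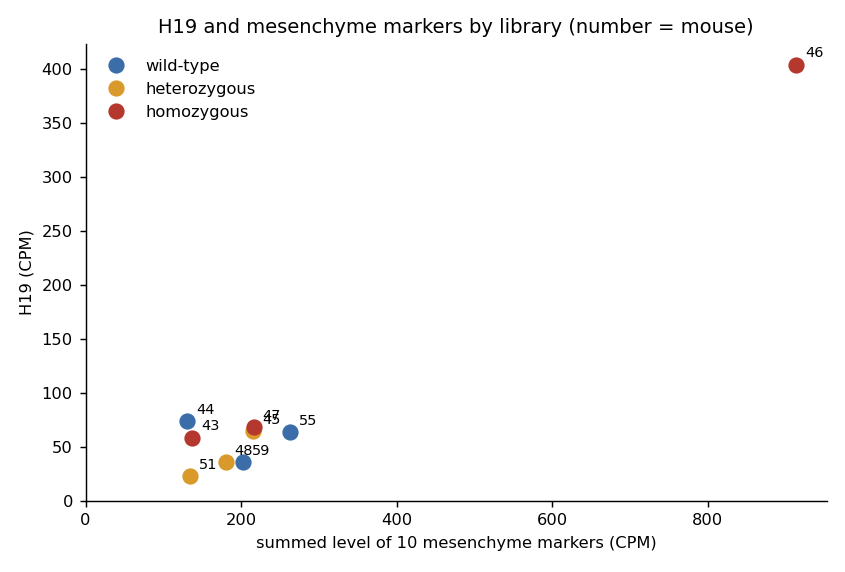
H19 in CPM (y axis) against the summed level of 10 mesenchyme markers in CPM (x axis), with 1 point per library, its mouse number and genotype colour. Homozygous 46 lies apart at 404 and 914 CPM, and the other 8 libraries lie within 23.1 to 74.1 CPM of H19 and 131 to 263 CPM of markers.

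Kcnq1ot1 (ENSMUSG00000101609, minus strand, chr7:143203458-143296549) is a paternally expressed, unspliced antisense RNA that silences Cdkn1c and neighbours on its own chromosome. Its CPM was 27.4, 16.0 and 60.7 in wild-type 44, 55 and 59. It was 47.7, 18.0 and 28.6 CPM in heterozygous 45, 48 and 51, and 24.1, 57.3 and 52.1 CPM in homozygous 43, 46 and 47. The genotypes overlapped, with a log2 fold change of 0.26 from wild-type to homozygous HCs (95% interval -0.87 to 1.39, edgeR adjusted p = 0.900). The counted gene spans 93.1 kb as 1 exon, and its protein-coding host on the other strand, Kcnq1, overlaps 0.13% of that length with its exons.

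Meg3, Rian and Mirg lie in this order on the plus strand of chromosome 12, in the Dlk1-Dio3 cluster, and are read from the maternal chromosome. Meg3 (ENSMUSG00000021268, chr12:109541001-109571726) had 2, 97 and 0 reads in wild-type 44, 55 and 59. It had 84, 53 and 0 reads in heterozygous 45, 48 and 51, and 4, 2 and 0 reads in homozygous 43, 46 and 47. At most it reached 3.41 CPM, and libraries of every genotype had none. It passed the filter on low counts through the heterozygous libraries alone, and its log2 fold change from wild-type to homozygous HCs was -3.79 with an SE of 2.83 (edgeR adjusted p = 0.626). Without wild-type 55 it was 0.75, so its direction rested on that library.

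Mirg (ENSMUSG00000097391, chr12:109729764-109749460), a host of microRNAs, had 39 reads in wild-type 55, 61 in heterozygous 51, 110 in homozygous 43 and 1 in homozygous 46, and none in the other 5 libraries. The 3 libraries with more than 10 reads were of different genotypes, and only wild-type 55 also had more than 10 reads of Meg3. Rian (ENSMUSG00000097451, chr12:109603940-109661716), a host of small nucleolar RNAs, was listed at 0 in all 9 libraries. A count of 0 allows up to 3 reads, or 0.0860 CPM in the deepest library and 0.165 CPM in the shallowest, as far as counting error goes. Both genes failed the filter and were not tested. Srsf1 and Sf1, splicing factors of most cells, were also listed at 0 in all 9 libraries, so a 0 in these tables need not mean that no RNA was present.

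Within the 208 kb from the start of Meg3 to the end of Mirg lie 79 other genes, and none of the 79 had a read. Of these, 76 are microRNA or small nucleolar RNA genes. The libraries were not made for small RNAs, so the absence of reads in these 76 does not show that the cluster was silent. Rtl1, a paternally expressed protein gene of the cluster, is among the 79. Dlk1 and Dio3, also paternally expressed protein genes of the cluster, lie outside that interval and were listed at 0 in every library too. Other listed genes outside that interval had reads, with Begain at 16.0 to 281 CPM and Yy1 at 49.7 to 101 CPM over the 9 libraries. Of 8 listed genes in or beside the cluster that the tables hold, 5 were tested and edgeR called none, with none at an unadjusted p under 0.05 and none called by DESeq2 or limma-voom.

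The members were chosen with earlier results of these data known, so the shares of all genes beside them are a description. Between homozygous and wild-type HCs edgeR called 0 of the 6 members tested, beside 1.15% of all 15184 genes. In edgeR 3 members (Miat, H19 and Neat1) had an unadjusted p under 0.05, beside 13.1% of all genes. DESeq2 called 1 member, Miat, beside 6.36% of all genes, and limma-voom none, beside 2.11%. Between heterozygous and wild-type HCs 0 members were called by any of the 3 tools, beside 0% of all genes in edgeR, 0.303% in DESeq2 and 0.00659% in limma-voom, and none had an unadjusted p under 0.05 in edgeR, beside 4.52%. Between homozygous and heterozygous HCs 0 were called by any of the 3 tools, beside 0.00659% of all genes in edgeR, 0.968% in DESeq2 and 0.896% in limma-voom, with 2 (Miat and H19) at an unadjusted p under 0.05, beside 6.78%. The trend over Dmdo allele number called 0 of 6, beside 1.78% of all genes, with 2 at an unadjusted p under 0.05 beside 13.2% (edgeR), and limma-voom also called 0, beside 5.04%. From wild-type to homozygous HCs the median log2 fold change of the 6 members was -0.68, beside -0.02 over all genes tested, and without Meg3, whose direction rested on 1 library, it was 0.18 over the other 5.

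**Figure D5:**
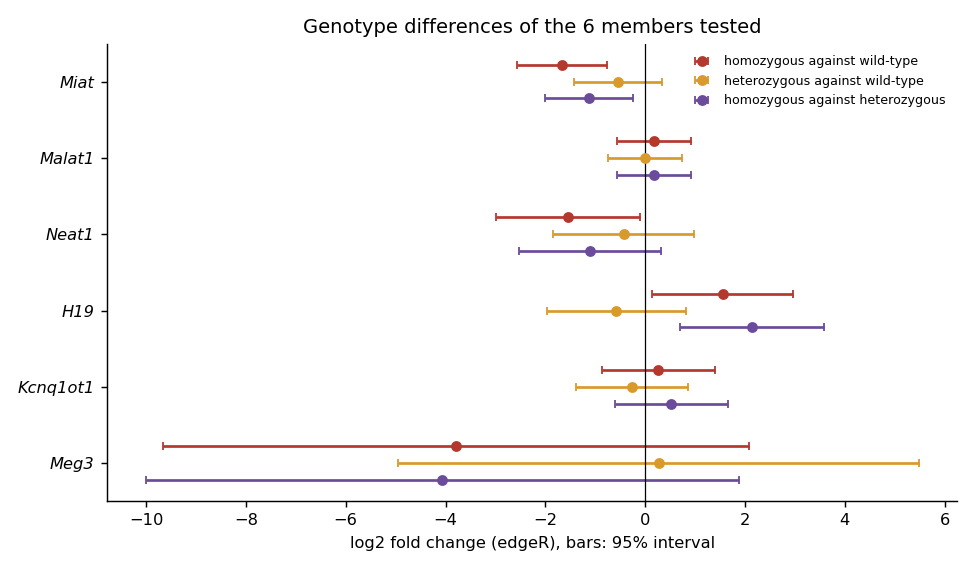
Log2 fold change of the 6 members tested (x axis, edgeR on all 9 libraries) in 3 genotype comparisons marked by colour, with 95% intervals as bars. From wild-type to homozygous HCs the intervals of Miat (-2.56 to -0.77), Neat1 (-2.98 to -0.10) and H19 exclude 0 before adjustment over all genes, and that of Meg3 spans -9.66 to 2.08.

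The partners of these RNAs were taken from lists. Beside the lists here and below, the median log2 fold change over all genes tested was -0.02 from wild-type to homozygous HCs. EdgeR called 1.15% of all genes in that comparison, DESeq2 6.36% and limma-voom 2.11%. In edgeR 13.1% of all genes had an unadjusted p under 0.05. Of 15 paraspeckle proteins, all were tested and edgeR called 0 between homozygous and wild-type HCs, with 0 at an unadjusted p under 0.05 and 0 by DESeq2 or limma-voom. Their log2 fold changes were below 0 for 13 of 15, with a median of -0.31. Sfpq, which binds Neat1 and is needed for paraspeckles, had the smallest p of them, at -0.62 (SE 0.31, edgeR adjusted p = 0.396), and with a term for mouse number it was at 0.18 (0.939). Of 12 nuclear speckle proteins tested, edgeR called 0 and limma-voom 0, DESeq2 called 1, and 2 had an unadjusted p under 0.05 in edgeR. The median was -0.48, and 9 of 12 were below 0. Srrm2, a core protein of speckles, was at 342 to 991 CPM in wild-type, 392 to 944 CPM in heterozygous and 273 to 340 CPM in homozygous HCs. Its log2 fold change was -1.37 (SE 0.37), and it was not called (edgeR adjusted p = 0.119), but was in 6 of 20 alternatives. Like Miat, Srrm2 was low in the mice numbered up to 47, at 273 to 392 CPM, and high in those from 48 on, at 728 to 991 CPM, without overlap. With a term for mouse number its log2 fold change was -0.35 (edgeR adjusted p = 0.807). Son, another speckle core protein, was at -0.66 (SE 0.29, edgeR adjusted p = 0.344).

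Of the 4 splicing factors known to bind Miat, Srsf1 and Sf1 were listed at 0. Qki was at 0.14 and Celf3 at -0.18 on the log2 scale, neither called by any of the 3 tools nor at an unadjusted p under 0.05. Of 8 tested neighbours of Malat1 and Neat1 on chromosome 19, edgeR, DESeq2 and limma-voom called 0, and none had an unadjusted p under 0.05. Their median was -0.44.

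In the Kcnq1ot1 domain 7 of 12 genes were tested, and edgeR, DESeq2 and limma-voom called 0, with 1 at an unadjusted p under 0.05. That gene was Cdkn1c, an inhibitor of the cell cycle that Kcnq1ot1 silences in cis. Its mean was 370 ± 128 CPM (SD, n = 3) for wild-type, 526 ± 73.6 CPM (SD, n = 3) for heterozygotes and 590 ± 86.9 CPM (SD, n = 3) for homozygotes, a log2 fold change of 0.60 (SE 0.25, edgeR adjusted p = 0.314). In the H19-Igf2 domain 4 of 8 genes were tested. EdgeR called 0 with 1, Lsp1, at an unadjusted p under 0.05, DESeq2 called 1 and limma-voom 0. Lsp1 was at -7.32 on the log2 scale (SE 3.03, edgeR adjusted p = 0.302). Its level was 12.6 CPM in wild-type 59, 1.79 CPM in wild-type 55 and at most 0.0550 CPM elsewhere. Of the 4 genes 3 were below 0, with a median of -2.14, and Igf2 was above 0. Igf2 was at 1.00 on the log2 scale (SE 0.59, edgeR adjusted p = 0.496) and at -0.36 without homozygous 46 and wild-type 59.

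Among 24 tested imprinted genes of other loci, edgeR, DESeq2 and limma-voom called 0 between homozygous and wild-type HCs, with 2 at an unadjusted p under 0.05 in edgeR and a median of -0.07. These 2 are paternally expressed. Peg3, a zinc finger gene, had 76.2 ± 44.9 CPM for wild-type and 34.8 ± 15.0 CPM for homozygotes (SD, n = 3 each), a log2 fold change of -1.23 (SE 0.47, edgeR adjusted p = 0.271). Peg10, a gene derived from a retrotransposon, was at 64.1 ± 11.5 and 22.2 ± 16.6 CPM (SD, n = 3 each), and its log2 fold change was -1.63 (SE 0.63, edgeR adjusted p = 0.280). Grb10, an imprinted adaptor of growth factor receptors, was at 0.65 (SE 0.31, edgeR adjusted p = 0.382). Mest, the listed imprinted gene nearest to Mir96, 554 kb away on chromosome 6, had 25.0 ± 13.5 CPM for wild-type and 40.4 ± 25.3 CPM for homozygotes (SD, n = 3 each), which was not called (edgeR adjusted p = 0.692). Mir96 itself had 11.4 ± 13.8 CPM for wild-type and 0.137 ± 0.119 CPM for homozygotes (SD, n = 3 each) (edgeR adjusted p = 0.248). Its count comes from libraries not made for small RNAs and does not check the genotypes, since the mutation changes a base only.

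Of 9 tested regulators of imprints, DNA methyltransferases and Polycomb proteins among them, edgeR called 0, with 1 at an unadjusted p under 0.05, DESeq2 called 1 and limma-voom 0. Suz12, a Polycomb subunit, was at 0.87 (SE 0.32, edgeR adjusted p = 0.250).

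Other long non-coding RNAs gave a comparison for the members. Of 31 listed ones tested, edgeR called 1, Gas5, a host of small nucleolar RNAs, which rose from 83.7 ± 23.3 to 209 ± 59.5 CPM (SD, n = 3 each), a log2 fold change of 1.23 (SE 0.30, adjusted p = 0.0711). Snhg1, a host of the same kind, was at 1.77 (SE 0.61, edgeR adjusted p = 0.215). Gas5 was called in 10 of 20 alternatives (adjusted p from 0.0060 to 0.443). Its call was lost without wild-type 55 (0.105), wild-type 59 (0.180), heterozygous 51 (0.126), homozygous 43 (0.213) or homozygous 47 (0.260), and with a term for mouse number (0.142). Over all 868 long non-coding genes tested, edgeR called 1 higher and 2 lower, or 0.346%, beside 1.15% of all genes.

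Across the 9 libraries the log2 CPM of the 7 members with reads gave 21 pairs. No pair passed adjustment over them, for Pearson's r or Spearman's rho. Malat1 and Kcnq1ot1 had r = 0.79 (exact permutation p = 0.0132, adjusted p = 0.155) and rho = 0.717 (exact permutation p = 0.0369, adjusted p = 0.387). Within genotypes r was 0.82, and without homozygous 43 and 46 it was 0.79. Neat1 and Miat had r = 0.77 (exact permutation p = 0.0148, adjusted p = 0.155) and rho = 0.75 (exact permutation p = 0.0255, adjusted p = 0.387). Within genotypes r was 0.51, and without homozygous 43 and 46 it was 0.66. The neighbours Malat1 and Neat1 had r = 0.13 (exact permutation p = 0.738) and rho = -0.13 (exact permutation p = 0.744), and Meg3 and Mirg had r = 0.02 (exact permutation p = 0.941) and rho = -0.03 (exact permutation p = 0.955). The sets of lower and higher mouse numbers, 5 and 4 libraries, are too small for a correlation of their own.

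The genes whose pattern over the 9 libraries was most like that of Miat were Cfap65 (r = 0.98), Ankrd24 (r = 0.98) and Rexo1 (r = 0.97), of 15184 tested. Cfap65, a cilia and flagella gene, was lower in homozygous than wild-type HCs at -1.68 on the log2 scale (edgeR adjusted p = 0.0745), and Ankrd24, which encodes a protein of the stereocilia rootlet, at -1.21 (edgeR adjusted p = 0.0826). With a term for mouse number neither was called, at -0.70 for Cfap65 (edgeR adjusted p = 0.663) and -0.44 for Ankrd24 (0.679), and each call was also lost without wild-type 55, wild-type 59, heterozygous 51 or any 1 of the homozygous libraries, with adjusted p from 0.126 to 0.323. Rexo1 was at -1.31 and not called (edgeR adjusted p = 0.168). Most like Malat1 were Tmem150c (r = 0.96), Ubxn4 (r = 0.95) and Zfp955a (r = 0.95). For Neat1 they were Trerf1 (r = 0.95), Dazap1 (r = 0.94) and Zfp251 (r = 0.94), and Dazap1 is among the paraspeckle proteins of the list used above. For Kcnq1ot1 they were Klhl12 (r = 0.96), Gm15610 (r = 0.94) and Kcnh7 (r = 0.93), for H19 Sephs2 (r = 0.94), Gpat4 (r = 0.93) and Decr2 (r = 0.93), and for Meg3 Dkk2 (r = 0.98), Gm37422 (r = 0.98) and Adamts20 (r = 0.97). These are the highest of many values of r in only 9 libraries, which share depth, genotype and mouse number, and are given as a description.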

How the data were processed

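The authors aligned reads to GRCm38 with HISAT2 (version 2.0.4 in the submitters' processing notes) and used HTSeq to count reads per gene. The deposited tables hold raw counts, not normalized, of 43808 genes per library. The libraries were amplified by PCR without molecular identifiers, and their kit kept strand, but whether HTSeq used strand is not given in sources used here. The paper puts the RNA integrity of 1 wild-type and 1 homozygous library below that of the rest, but not which mice these were, and gives no litters. From the counts, CPM, CPM per kb of merged exons (GENCODE vM21, GRCm38) and log2 CPM (prior count 2) were computed. Genes with at least 20 reads in 2 or more mice of at least 1 genotype, 15184 in all, were tested in edgeR 4.0.16 (R 4.3.3; quasi-likelihood, robust, TMM, 9 libraries in 1 fit). A gene was called at a Benjamini-Hochberg false discovery rate under 10% and a fold above 1.5, and the trend over 0, 1 and 2 alleles without a minimum fold. P-values are adjusted over all genes tested. DESeq2 1.42.0, limma 3.58.1 (voom) and sva 3.50.0 served as alternatives, and the tests were run on simulated counts first.

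The members, the gene lists and the split of mouse numbers at 47 were chosen with earlier results of these data known. Named beside the members were, from each list, up to 4 genes of smallest p and any called, and for each member the 3 genes of highest Pearson r. Of these, the text gives a part of the list genes. Of the lists, the trans-regulators, speckle, paraspeckle, Miat-binding and neighbour lists hold proteins from textbook knowledge. The marker lists of supporting cells, neurons and Schwann cells are summarised in the closing section. Tables were made with Python and pandas. Mice were separate animals, and the numbers pair none between genotypes.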

Additional observations from a re-analysis of the deposited data

How the results depend on the processing

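Of the 6 members tested between homozygous and wild-type HCs, edgeR on all 9 libraries called 0, DESeq2 called 1, edgeR on these genotypes alone 1 and edgeR without a filter 2 (Miat and H19). With 1 library left out it called 0 to 1, the 1 being Miat without wild-type 44, heterozygous 45 or heterozygous 48. Against heterozygous HCs the fit without a filter called 2 (Miat and H19), and in the trend leaving out 1 library gave 0 to 1. No member was called between heterozygous and wild-type HCs in any alternative. The cause was not tested. Over all genes, these tests called 175 (edgeR), 966 (DESeq2), 320 (limma-voom) and 562 (edgeR without a filter) between homozygous and wild-type HCs, from 20 to 697 with 1 library left out, 59 with a surrogate variable, 25 with the mouse number, 17 with glmTreat and 23 without both wild-type 59 and homozygous 46.

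Directions from wild-type to homozygous HCs turned for Malat1 at -0.014 with limma-voom, and without wild-type 44 (-0.025) or homozygous 46, in a range of -0.25 to 0.60 with 1 library left out. They turned without wild-type 55 for Meg3 (range -4.40 to 0.75) and for Kcnq1ot1 (range -0.095 to 0.98). H19 turned to -0.18 without both wild-type 59 and homozygous 46, and its trend to -0.088 there and to -0.0028 without homozygous 46 (range up to 0.95). Igf2 turned to -0.36 without both, and a term for mouse number turned Mir96 to 1.03 and Sfpq to 0.18. Miat and Neat1 kept their direction in all 20 alternatives.

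Among the lists, DESeq2 called 1 gene each of the H19-Igf2 domain, the trans-regulators and the nuclear speckle proteins, and 2 mitochondrial mRNAs, where edgeR called 0. Of the mitochondrial mRNAs limma-voom called 5 and edgeR without a filter 1. Without a filter it called 1 speckle protein and 1 imprinted gene of other loci, and on the compared genotypes alone 1 speckle protein. Of the other long non-coding RNAs edgeR called 1, DESeq2, limma-voom and the fit without a filter 2 each, and 0 were called with the genotypes alone, a surrogate variable, the mouse number, glmTreat or without both libraries. With 1 library left out these counts ran from 0 to 3 for the other long non-coding RNAs, 0 to 2 for the speckle proteins, and 0 to 1 for the Kcnq1ot1 domain, the other imprinted genes, the paraspeckle proteins and the mitochondrial mRNAs. The list counts and the trend of H19 under alternatives were added after seeing the data. Sites of 8 bases numbered 1 for the wild-type seed and 2 for the Dmdo seed in the members, all in Rian. No paired analysis was possible because the genotypes share no mouse number.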

Other observations

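Other cell types in the sort were read from marker lists. Between homozygous and wild-type HCs edgeR called 2 of 13 HC markers, both lower, beside 1.15% of all genes tested. Ocm, a calcium-binding protein of outer HCs, fell from 116 ± 37.8 to 16.3 ± 7.60 CPM (SD, n = 3 each), a log2 change of -2.92 (SE 0.45, adjusted p = 0.0066), and Espn, an actin-bundling protein of stereocilia, was at -1.18 (SE 0.23, adjusted p = 0.0236). DESeq2 called 7 HC markers, beside 6.36% of all genes, and limma-voom 4, beside 2.11%. Ocm was called in all 20 alternatives and Espn in 15 of them, not without wild-type 59 (0.104), homozygous 43 (0.206) or homozygous 47 (0.106). Of 12 supporting cell markers, 8 mesenchyme, 7 neuron and 5 Schwann cell markers tested, edgeR called 0. In edgeR 1, 2, 1 and 3 of them had an unadjusted p under 0.05, beside 13.1% of all genes. DESeq2 called 0, 1, 1 and 2 of them, and limma-voom 0. Schwann cell markers summed to 109 ± 82.2 CPM in wild-type and 195 ± 85.1 CPM in homozygous HCs (SD, n = 3 each), and neuron markers to 502 ± 49.6 and 493 ± 46.9 CPM. Endothelial, macrophage and melanocyte markers summed to at most 10.1, 9.47 and 16.5 CPM in any library.

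Of the 13 mitochondrially encoded mRNAs 4 were listed at 0 in every library and 7 were tested. EdgeR called 0 of these between homozygous and wild-type HCs, with 5 at an unadjusted p under 0.05, and all 7 were above 0.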
